A study of Mus musculus with 12 samples.

Results

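Tumors of mice treated with doxorubicin (DOX) plus an IgG1 isotype antibody were compared with tumors of mice treated with anti-PD-1 antibody alone, 2 active agents given without each other. The treatment labels chose 6 of the 12 tumors in the series, 3 labelled DOX + IgG1 and 3 labelled anti-PD-1, named DOX/IgG1 and anti-PD-1 here. The remaining 6 tumors, 3 from mice given IgG1 alone and 3 from mice given DOX/anti-PD-1, are quoted only beside them. The study asked how chemotherapy alters the response of mammary tumors to PD-1 blockade, and for this RNA of whole tumors was sequenced, 1 library per tumor.

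All mice were C57BL/6 females with polyoma middle T antigen (PyMT) as a transgene, driven in mammary epithelium by the mouse mammary tumor virus promoter. DOX/IgG1 mice were given 5 mg/kg doxorubicin each week for 5 weeks, each dose followed on the next day by 10 mg/kg IgG1, starting when the first tumor measured 1 cm across. Anti-PD-1 mice were given antibody 4H2 without doxorubicin, 20 mg/kg first and 10 mg/kg at each later dose, starting when the first tumor measured 0.6 cm. The labels give 5 weeks for all groups and no age. The groups therefore differ in drug, antibody, dosing schedule, first antibody dose and the tumor size at which treatment began, and the contributions of these cannot be told apart.

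Doxorubicin slides between the bases of DNA and traps topoisomerase II on broken strands, and the damage activates p53 and stops cells from dividing. PD-1 is an inhibitory receptor of activated T cells, and antibodies that cover it keep its ligands from restraining these cells. PyMT tumors are luminal carcinomas whose epithelium keeps part of the secretory program of the mammary gland, and they also hold fibroblasts, vessels, fat and many macrophages.

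Expression was available as the log2(TPM + 1) that the authors deposited for 21960 genes, where TPM are transcript abundances scaled to a common total. Read counts are not part of these files, so sequencing depth is unknown, and a gene listed at 0 is not shown to be absent. limma was applied to the 13852 genes with at least 1 TPM in 3 or more of the 6 tumors, and a gene is referred to as called when its adjusted p is below 0.1 and its log2 fold change is above 1 or below -1. All log2 fold changes are DOX/IgG1 minus anti-PD-1, from means of log2(TPM + 1). Levels of single tumors are listed for replicates 1 to 3 in order, those of anti-PD-1 before those of DOX/IgG1 unless stated. The exact permutation test, two-sided, gives p = 0.1 whenever the 3 values of each group do not overlap, the smallest value that 3 tumors against 3 allow. Coordinates refer to GRCm38 (mm10).

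The tissue label fits its markers, since all 10 luminal epithelial genes were detected in all 6 tumors. Together these reached 3890, 2999 and 3284 TPM in the anti-PD-1 tumors and 3220, 3829 and 4219 TPM in the DOX/IgG1 tumors. The groups overlapped in 7 of the 10 genes, and the median log2 fold change was -0.07 (-0.20 without DOX/IgG1 replicate 1). Epcam and Cldn7 lay lower and Spint1 higher in every DOX/IgG1 tumor, as did 5.44% and 12.8% of all genes.

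DOX/IgG1 replicate 1 stood apart from the other tumors before any gene was tested. Across the tested genes its mean correlation with its group was 0.849, whereas the other 5 tumors had means of 0.889 to 0.935 with theirs, and genes are not independent replicates. It had the most genes at 0, 8104 against 6534 to 7611 in the other 5 tumors. In 1702 genes it lay more than 1 log2 unit below both other DOX/IgG1 tumors, and in 694 genes above both by as much. Of the first 2 principal components, the first (34.7% of the variance) placed it at -64 and the other DOX/IgG1 tumors at 52.6 and 53.5, with the anti-PD-1 tumors between -19.7 and -7.2. Only the second of these (29% of the variance) separated the groups, with anti-PD-1 at 28.3 to 44.9 and DOX/IgG1 at -61.6 to -22.1. The header of the file of this tumor also carries the word test, for which no reason is given. Whether the tumor or its library differs was not tested, and results that rest on it are given with and without it. Among the anti-PD-1 tumors, replicate 1 carried the most RNA of skeletal muscle, where 10 muscle genes summed to 709, 61.5 and 28.2 TPM in the 3 tumors and to 50.8, 168 and 219 TPM in the DOX/IgG1 tumors.

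**Figure D1:**
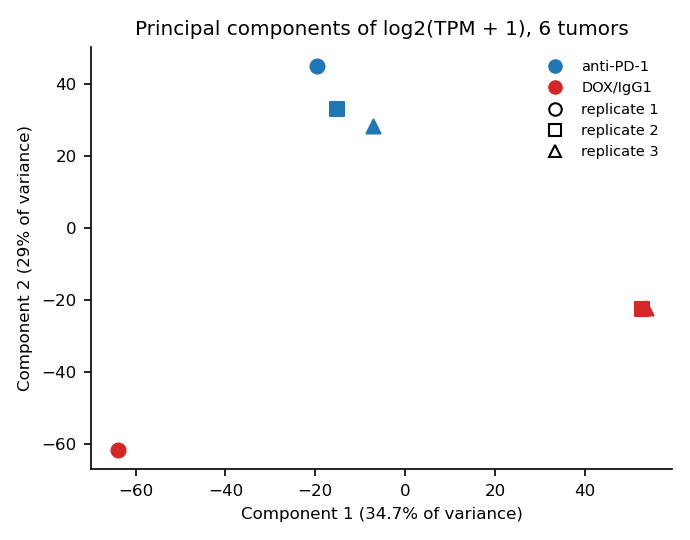
Scores of the 6 tumors on the first 2 principal components of log2(TPM + 1), colored by group and shaped by replicate number. DOX/IgG1 replicate 1 lies at -64 on the first component, far from the other DOX/IgG1 tumors at 52.6 and 53.5.

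Igfbp4, Gas6, Timp3, Prelp and Bpifa2 were called higher in DOX/IgG1 than in anti-PD-1 tumors, and called lower were Hist1h2af, Hist1h3a, Hist1h2ac, Saa1, Lgals7, Col9a2 and Xbp1. Among gene lists, all 5 tested milk protein genes lay lower in each DOX/IgG1 tumor than in any anti-PD-1 tumor, against 5.44% of all genes. Higher in each lay 9 of 23 p53 targets and 7 of 12 hedgehog genes, against 12.8% of all genes. The same held for 7 of 15 genes for matrix proteases and their inhibitors, among them the inhibitor gene Timp3. Genes set apart by the filter alone are left out of these counts. The lists were chosen with earlier results of these data known. Genes of fibroblasts, hormone receptors and T cells differed among the DOX/IgG1 tumors themselves.

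In total limma called 12 of 13852 genes (0.0866%), 5 higher in DOX/IgG1 (0.0361%) and 7 lower (0.0505%). An unadjusted p below 0.05 was reached by 1713 genes, 1219 higher and 494 lower. Counts of list members at this limit are to be read against these totals of 13852 genes. In 1851 genes (13.4%) the 3 DOX/IgG1 tumors all lay above the 3 anti-PD-1 tumors, and in 780 (5.63%) all lay below. A gene under 1 TPM in a whole group passes the filter only if all 3 tumors of the other group reach 1 TPM, so its groups are set apart by the filter, which holds for 78 of the 1851 and 26 of the 780 genes. With these left out, 1773 genes (12.8%) lay above and 754 (5.44%) below. Further on, counts of list members without overlap leave such genes out, whereas counts of called members keep them. The called genes Bpifa2, Hist1h3a and Hist1h2ac are among them, and limma also called these 3 when genes were not filtered. Over all 13852 genes the median log2 fold change was 0.15, and scaling the tumors by the median of ratios brought it to 0.01. Medians of gene lists are to be read against 0.15. With this scaling 5 genes were called higher and 15 lower, among them all 12. The number of calls depended on single tumors. Without DOX/IgG1 replicate 1, 673 genes (4.86%) were called, 523 higher (3.78%) and 150 lower (1.08%), and these include all 12. Of the 673 genes, 339 had overlapping groups when the tumor was kept, and 672 had the same sign. Without anti-PD-1 replicate 1 or 2 limma called 2 genes each, without anti-PD-1 replicate 3 it called 0 (1249 at an unadjusted p below 0.05), and without DOX/IgG1 replicates 2 and 3 it called 6 and 10.

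**Figure D2:**
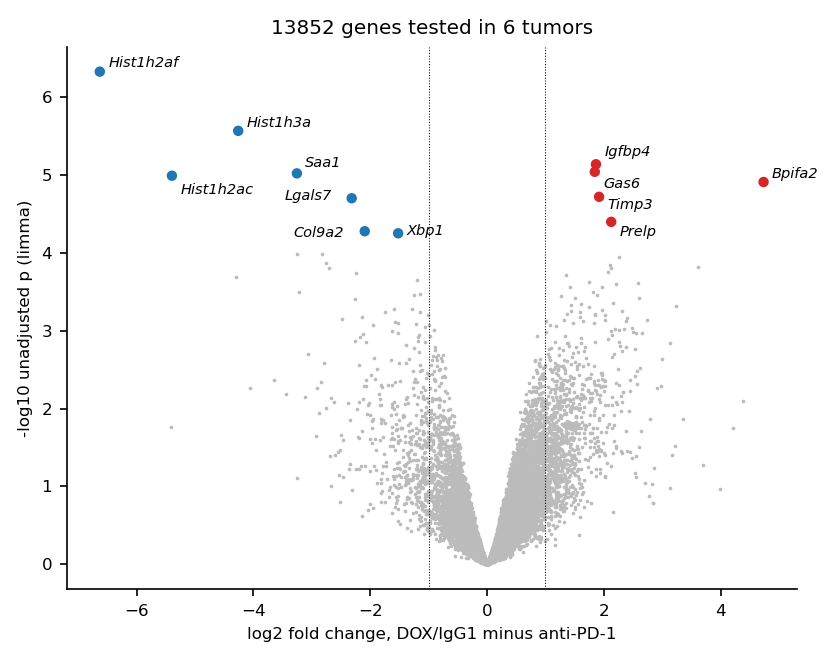
Each point is 1 of the 13852 tested genes, with the log2 fold change of DOX/IgG1 minus anti-PD-1 on the x axis and the -log10 of the unadjusted limma p on the y axis. The 5 genes called higher are red, the 7 called lower are blue, and dotted lines mark an absolute log2 fold change of 1.

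Igfbp4 (ENSMUSG00000017493, chromosome 11, 99041244 to 99054392) encodes a secreted protein that binds insulin-like growth factors and limits their access to receptors. Its level was 92.6, 92.8 and 105 TPM in the anti-PD-1 tumors against 301, 387 and 382 TPM in the DOX/IgG1 tumors. The lowest DOX/IgG1 tumor thus stood well above the highest anti-PD-1 tumor. Mean Igfbp4 was 96.7 ± 6.84 TPM after anti-PD-1 and 357 ± 48.0 TPM after DOX/IgG1 (SD, n = 3). The difference was 1.87 log2 units with a standard error of 0.19 (limma adjusted p = 0.0238). Gas6 (ENSMUSG00000031451, chromosome 8, 13465374 to 13494490) encodes the ligand of the receptor tyrosine kinases Tyro3, Axl and Mertk, which clear dying cells and dampen macrophages. Its level was 53.2, 50.2 and 63.8 TPM after anti-PD-1 against 221, 207 and 180.0 TPM after DOX/IgG1, without overlap. Gas6 was thus higher in DOX/IgG1 tumors by 1.84 log2 units with a standard error of 0.19 (limma adjusted p = 0.0238). Its receptor gene Mertk had 7.64, 14.9 and 7.72 TPM against 18.7, 18.1 and 20.8 TPM, also without overlap, but did not pass the limits (log2 fold change 0.92, limma adjusted p = 0.330).

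Timp3 (ENSMUSG00000020044, chromosome 10, 86300372 to 86349506) encodes an inhibitor of metalloproteases that is held in the matrix. It measured 161, 251 and 187 TPM in anti-PD-1 tumors against 683, 787 and 768 TPM in DOX/IgG1 tumors, and all DOX/IgG1 values were within a narrow range. The means were 199.7 ± 46.5 and 746 ± 55.4 TPM (SD, n = 3). The difference was 1.92 log2 units with a standard error of 0.22 (limma adjusted p = 0.0308). Prelp (ENSMUSG00000041577, chromosome 1, 133910304 to 133921414) encodes a leucine-rich repeat proteoglycan of connective tissue that links basement membranes to collagen. Its level was 8.36, 7.51 and 7.36 TPM after anti-PD-1 against 31.9, 46.6 and 34.3 TPM after DOX/IgG1, and the groups were far apart. Prelp was higher after DOX/IgG1 by 2.13 log2 units with a standard error of 0.27 (limma adjusted p = 0.0558). Bpifa2 (ENSMUSG00000042459, chromosome 2, 154008265 to 154016079), which encodes a secreted protein of the salivary glands, was listed at 14.4, 21.3 and 53.7 TPM in the 3 DOX/IgG1 tumors and at 0 in every anti-PD-1 tumor. The filter alone sets its groups apart, so the test without the filter is given (limma adjusted p = 0.0614). It was likewise listed at 0 in all IgG1 and all DOX/anti-PD-1 tumors, so that DOX/IgG1 tumors were the only ones of the 12 with a value above 0.

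Of the 9 genes listed for salivary-type secretion, 6 could be tested, and beside Bpifa2 2 of these lay higher in every DOX/IgG1 tumor, against 12.8% of all genes (median log2 fold change 0.95 with Bpifa2). Leaving out each tumor in turn moved this median between 0.52 and 1.44. Smr3a, a gene for a small secreted peptide of the submandibular gland, had 16.6, 10.2 and 14.8 TPM in the DOX/IgG1 tumors and 0, 0 and 2.76 TPM after anti-PD-1. Amy1, the salivary amylase gene, measured 18.1, 4.85 and 7.32 TPM after anti-PD-1 against 21.1, 42.8 and 34.3 TPM after DOX/IgG1, and neither of these genes was called (limma adjusted p = 0.153 and 0.248). Aqp5, a water channel of secretory epithelia and the most abundant member, went the other way, with 422, 277 and 546 TPM and 252, 251 and 279.9 TPM, and these groups overlapped. Dcpp1 was at 8, 0 and 1.79 TPM in DOX/IgG1 tumors and at 0 after anti-PD-1, too low to be tested. The whole list summed to 449, 286 and 558 TPM after anti-PD-1 and to 313, 329 and 392 TPM after DOX/IgG1. Mammary and salivary glands share parts of their secretory program, and whether salivary tissue contributed RNA to these tumors was not tested.

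**Figure D3:**
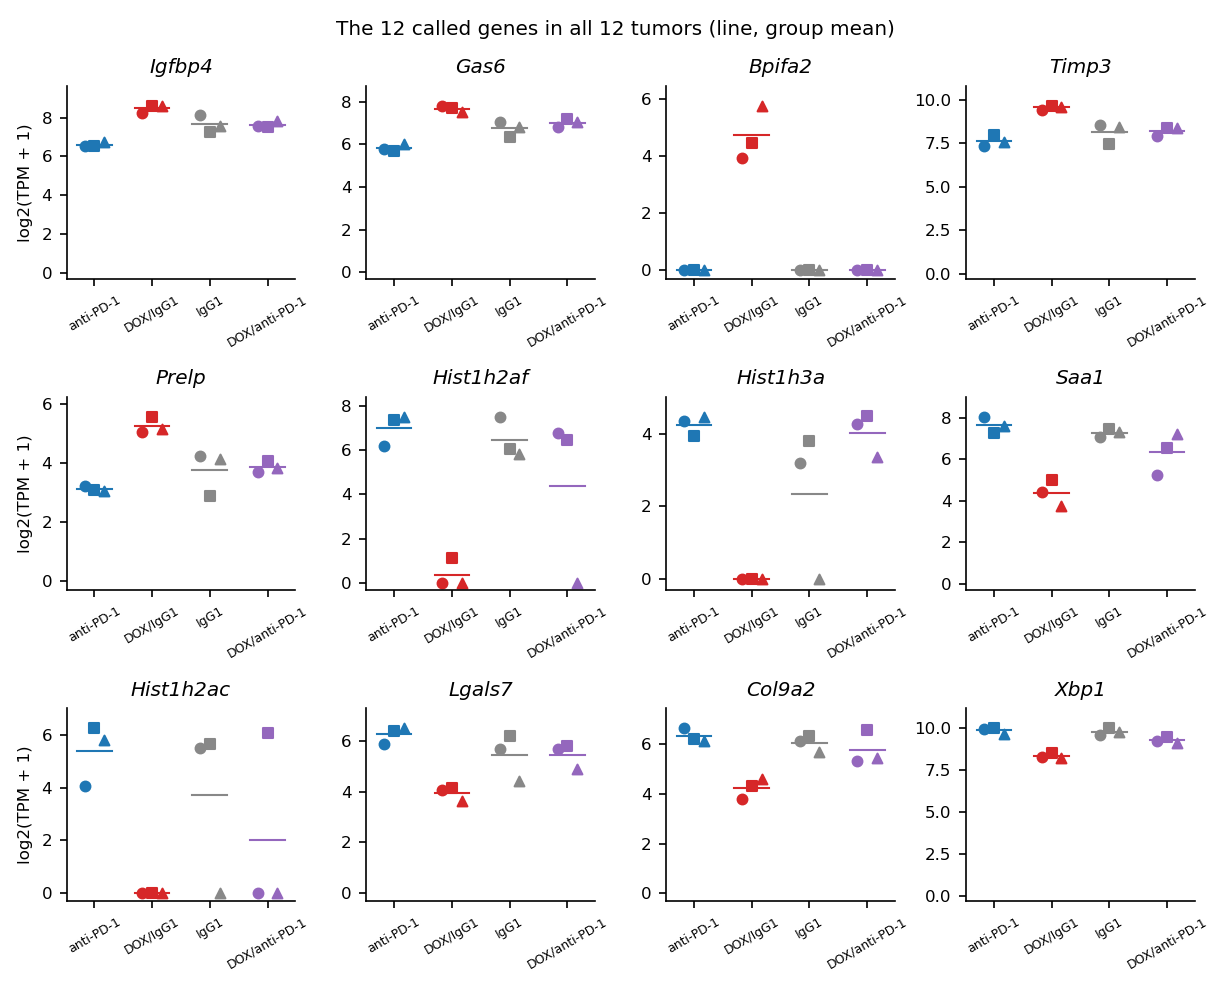
Log2(TPM + 1) of the 12 called genes in each of the 12 tumors, with a line at the mean of each group. For each gene the 3 DOX/IgG1 tumors lie on one side of the 3 anti-PD-1 tumors, and Bpifa2 is above 0 in DOX/IgG1 tumors only.

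Among genes called lower, the largest differences were found in histone genes, whose mRNAs are made while cells copy their DNA. Hist1h2af (ENSMUSG00000061991, chromosome 13, 23533906 to 23534304), a gene for histone H2A, measured 70.4, 162 and 179 TPM in anti-PD-1 tumors against 0, 1.16 and 0 TPM in DOX/IgG1 tumors (limma adjusted p = 0.00659). Hist1h3a (ENSMUSG00000069265, chromosome 13, 23761853 to 23762386) had 19.6, 14.5 and 21.1 TPM and Hist1h2ac (ENSMUSG00000069270, chromosome 13, 23681467 to 23683948) had 15.9, 76.8 and 55.8 TPM after anti-PD-1, whereas both were listed at 0 in all 3 DOX/IgG1 tumors (limma adjusted p = 0.0392 and 0.0614 without the filter, which alone sets their groups apart). Many histone genes are near-identical copies between which reads can be shared, so single values are uncertain. The IgG1 and DOX/anti-PD-1 tumors varied, for instance 45.1, 50.1 and 0 TPM and 0, 66.7 and 0 TPM for Hist1h2ac.

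Of 68 replication-dependent histone genes, 55 were tested and 3 of them were called lower (0.0505% of all genes). The filter alone sets 2 of the 3 apart, Hist1h3a and Hist1h2ac, so that among the others only Hist1h2af was called. Beside these 2, 17 lay lower in every DOX/IgG1 tumor against 1 higher (5.44% and 12.8% of all genes). Their median log2 fold change was -1.37 against 0.15 over all genes, and -0.81 without DOX/IgG1 replicate 2. The most abundant member, Hist2h2aa1, had 430.4, 538 and 454 TPM after anti-PD-1 against 263, 107 and 124 TPM after DOX/IgG1 (log2 fold change -1.63, limma adjusted p = 0.166). The list summed to 2738, 3824 and 3815 TPM in anti-PD-1 tumors against 2453, 950.3 and 1217 TPM in DOX/IgG1 tumors. DOX/IgG1 replicate 1 held the highest histone level of its group, and against the anti-PD-1 mean the medians of the 3 DOX/IgG1 tumors were -0.34, -1.52 and -1.56. Without replicate 1 limma called 19 members lower, Hist1h3a and Hist1h2ac among them (1.08% of all genes in that fit). Hist2h2be, the member that lay higher, had 2.46, 1.9 and 1.71 TPM against 6.84, 3.79 and 6.87 TPM.

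Genes of mitosis showed the same division within the DOX/IgG1 group. Limma called 0 of the 18 tested, with 3 lower at an unadjusted p below 0.05, and the median log2 fold change was -0.75. In every DOX/IgG1 tumor 2 of the 18 lay lower and 0 higher (5.44% and 12.8% of all genes). DOX/IgG1 replicates 2 and 3 had medians of -1.53 and -1.05 against the anti-PD-1 mean and replicate 1 had 0.13. Without replicate 1 the median of the list was -1.16 and 4 members were called lower (1.08% of all genes in that fit). Without replicate 2 the median was -0.44. Mki67, which marks cycling cells, had 149.7, 137 and 98.2 TPM after anti-PD-1 against 81.5, 25.2 and 51.7 TPM after DOX/IgG1, without overlap (log2 fold change -1.39, limma adjusted p = 0.257). Top2a, the form of topoisomerase II that dividing cells make and doxorubicin binds, had 137, 168 and 124 TPM against 107, 33.5 and 85.5 TPM, also without overlap (limma adjusted p = 0.343). Birc5, which guards chromosome segregation, had 20.01, 36.7 and 34.9 TPM and 24.9, 5.53 and 6.16 TPM, and replicate 1 overlapped the anti-PD-1 values. Fewer dividing cells and less RNA per dividing cell cannot be told apart in whole tumors, which holds for every gene list here. Among 18 genes of S phase the median was -0.21 (-0.53 to -0.06 with single tumors left out), with 2 members lower in every DOX/IgG1 tumor (5.44% of all genes), of which Rrm1, a subunit of ribonucleotide reductase, had 53.1, 73.5 and 64.02 TPM against 40.01, 37.6 and 34.97 TPM.

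Xbp1 (ENSMUSG00000020484, chromosome 11, 5520659 to 5525893) encodes a transcription factor that the stressed endoplasmic reticulum activates by splicing its mRNA and that maintains the secretory machinery. It measured 968, 1004 and 815 TPM in anti-PD-1 tumors against 303, 368 and 297 TPM in DOX/IgG1 tumors. Every DOX/IgG1 tumor had less than any other tumor of the 12. Mean Xbp1 was 929 ± 100.4 TPM after anti-PD-1 and 323 ± 39.5 TPM after DOX/IgG1 (SD, n = 3). The difference was -1.52 log2 units with a standard error of 0.20 (limma adjusted p = 0.0651). When genes were not filtered, Xbp1 was not called (limma adjusted p = 0.151). Of 15 tested genes of the unfolded protein response, 1 was called lower, Xbp1 (0.0505% of all genes). In every DOX/IgG1 tumor 5 of the 15 lay lower and 1 higher (5.44% and 12.8% of all genes). The median was -0.41 against 0.15. The chaperone gene Hsp90b1 had 2443, 2422 and 1889.7 TPM against 1735, 1352 and 1450.0 TPM, the disulfide isomerase gene Pdia4 had 556, 859.5 and 795 TPM against 366, 364 and 440.1 TPM, and the cochaperone gene Dnajb9 had 135, 149 and 169 TPM against 103, 72.3 and 67.8 TPM. These and Edem1, which directs misfolded proteins to degradation, lay lower without overlap and were not called (log2 fold changes of -0.90 to -0.57). Atf3, a stress-induced transcription factor of another arm, was the member that lay higher, with 9.85, 10.9 and 13.4 TPM against 23.4, 20.2 and 17.5 TPM. The medians of the 3 DOX/IgG1 tumors against the anti-PD-1 mean were -0.37, -0.54 and -0.49, so that replicate 1 was not apart from the others here, and leaving out single tumors moved the median of the list between -0.54 and -0.25.

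The promoters of Xbp1, the called gene, and of Hsp90b1, the one of the 5 lower members that holds a motif searched for, are shown so that the regulatory letters can be read beside the values. The sequences are from RefSeq (GRCm38.p6) and end before the annotated exons. Capitals mark the endoplasmic reticulum stress element (ERSE), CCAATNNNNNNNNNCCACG, on either strand. Hsp90b1 holds 2 matches, 1 on each strand, and Xbp1 holds none.
Xbp1, chr11:5520391-5520640, plus strand, 250 bases: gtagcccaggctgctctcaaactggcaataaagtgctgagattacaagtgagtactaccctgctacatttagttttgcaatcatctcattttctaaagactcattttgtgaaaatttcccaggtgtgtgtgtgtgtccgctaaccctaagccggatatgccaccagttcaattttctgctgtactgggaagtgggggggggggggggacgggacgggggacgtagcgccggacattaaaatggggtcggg
Hsp90b1, chr10:86705510-86705694, minus strand, 185 bases: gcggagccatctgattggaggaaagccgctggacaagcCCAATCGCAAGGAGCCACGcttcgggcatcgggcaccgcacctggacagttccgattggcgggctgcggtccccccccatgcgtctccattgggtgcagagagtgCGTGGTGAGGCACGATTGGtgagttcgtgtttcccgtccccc
Among windows of 250 bases before the start, 33 of 27025 promoters (0.122%) hold this element. A second motif, TGACGTG, the core of the unfolded protein response element that XBP1 binds, is held by 436 (1.61%). All 15 genes of the list were matched by symbol, of which Hsp90b1, Hspa5 and Creld2 hold the first motif and Hspa5 also the second. The groups overlapped for Hspa5 and Creld2. A match describes the letters only.

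Milk protein genes, products of differentiated luminal cells, had the lowest median of the 42 lists. Of 8 genes 5 could be tested, and all 5 lay lower in every DOX/IgG1 tumor (5.44% of all genes). Their median log2 fold change was -2.23 against 0.15. Csn3 (ENSMUSG00000001622, chromosome 5, 87925579 to 87932665), which encodes kappa-casein and is among the most abundant mRNAs of these tumors, had 5979, 9221 and 6830.4 TPM after anti-PD-1 against 812, 3071 and 2403 TPM after DOX/IgG1. Lalba, for alpha-lactalbumin, had 371, 979.7 and 341 TPM against 6.6, 134 and 60.4 TPM, and Csn1s1, for an alpha-casein, had 112, 138 and 209 TPM against 88.98, 9.39 and 33.2 TPM. The spread between tumors was wide, and limma called 0 of the 5 although all 5 had an unadjusted p below 0.05 (limma adjusted p = 0.236, 0.238 and 0.273 for these genes). Without DOX/IgG1 replicate 1 limma called 4 of them lower (1.08% of all genes in that fit). Wap, for whey acidic protein, had 10.5, 18.9 and 8.79 TPM after anti-PD-1 against 0, 1.79 and 0 TPM after DOX/IgG1. IgG1 tumors had 6987, 4472 and 7858 TPM of Csn3 and DOX/anti-PD-1 tumors 5652, 7864 and 2669 TPM, ranges that reach into the anti-PD-1 values. DOX/anti-PD-1 replicate 3, at 2669 TPM, lay within the DOX/IgG1 values. Leaving out each tumor in turn moved the median of the list between -2.45 and -2.03.

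Acute phase and defense proteins are secreted by epithelia in inflammation. Saa1 (ENSMUSG00000074115, chromosome 7, 46740497 to 46742980), which encodes serum amyloid A, measured 262, 152 and 194 TPM in anti-PD-1 tumors against 20.3, 30.5 and 12.4 TPM in DOX/IgG1 tumors. All DOX/IgG1 values were far below the others, and the change in Saa1 was -3.26 log2 units with a standard error of 0.34 (limma adjusted p = 0.0238). The neighboring gene Saa2 is so similar that reads may be shared, and had 44.8, 27.8 and 71.5 TPM against 15.3, 9.19 and 9.12 TPM (limma adjusted p = 0.158). Lcn2, for the iron-scavenging lipocalin 2, had 2641, 3133 and 4873 TPM against 1745, 1967 and 1424 TPM, and Saa3 had 8.93, 2 and 3.97 TPM against 1.02, 0 and 0.91 TPM, each without overlap. Of 14 tested genes 1 was called lower, Saa1 (0.0505% of all genes). In every DOX/IgG1 tumor 4 of the 14 lay lower and 0 higher (5.44% and 12.8% of all genes). The median log2 fold change was -0.99. The 3 DOX/IgG1 tumors had medians of -1.05, -0.81 and -1.19 against the anti-PD-1 mean. The summed level was 4350, 4351 and 6084 TPM against 9303, 3326 and 2375 TPM, and the highest sum, in replicate 1, held mostly Ltf, for lactoferrin (899, 771 and 647 TPM against 7185, 1022 and 750.1 TPM).

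Lgals7 (ENSMUSG00000053522, chromosome 7, 28863853 to 28866284), which encodes galectin-7 of stratified epithelia and is present in the mouse genome in near-identical copies, had 57.6, 84.2 and 90.9 TPM after anti-PD-1 against 15.98, 16.6 and 11.4 TPM after DOX/IgG1. All DOX/IgG1 values lay below the anti-PD-1 values, and the change was -2.32 log2 units with a standard error of 0.27 (limma adjusted p = 0.0308). Col9a2 (ENSMUSG00000028626, chromosome 4, 121039385 to 121055322) encodes a chain of type IX collagen, a collagen of cartilage that binds to fibrils. Its level was 99.7, 73.8 and 67.98 TPM in anti-PD-1 tumors against 12.98, 18.97 and 22.9 TPM in DOX/IgG1 tumors. The groups did not overlap, and the change was -2.09 log2 units with a standard error of 0.28 (limma adjusted p = 0.0651). Its partner chain Col9a1 had 115, 171 and 96.6 TPM against 16.04, 25.2 and 39.8 TPM, also apart, with a limma adjusted p of 0.115. Among 38 tested collagen genes 5 lay higher and 5 lower in every DOX/IgG1 tumor (12.8% and 5.44% of all genes), and the median was 0.26 (0.13 to 0.47 with single tumors left out). The basement membrane chain Col4a1 was among the higher ones, with 420.1, 314 and 294 TPM against 621, 448 and 495 TPM, and Col12a1 of interstitial matrix among the lower, with 57.1, 80.98 and 67.1 TPM against 38.1, 25.03 and 26.5 TPM.

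Next to the called genes stand those with the smallest unadjusted p among a wider set. Its genes have an absolute log2 fold change above 1, groups that do not overlap and at least 1 TPM in the whole higher group. Of the 13852 tested genes, 585 such genes not called were higher and 227 lower. These counts keep genes that the filter alone sets apart. Of the higher ones 7 are named. Fxyd2, a regulator of the sodium pump, had 10.8, 9.57 and 9.36 TPM after anti-PD-1 against 47.1, 246 and 197 TPM after DOX/IgG1 (log2 fold change 3.61, limma adjusted p = 0.109). Wfdc2, a secreted protein with whey acidic protein domains, had 12.9, 18.4 and 25.8 TPM against 58.9, 91.3 and 104 TPM, and St3gal4, which adds sialic acid to glycans, had 11.4, 15.5 and 15.8 TPM against 40.4, 82.01 and 80.6 TPM. In these 3 genes DOX/IgG1 replicate 1 was the lowest of its group. That it lay above all anti-PD-1 tumors was a condition of their choice. The hydrolase gene Cmbl, the natriuretic peptide receptor gene Npr1, Blcap and the adhesion gene Kirrel had log2 fold changes of 2.25, 2.08, 1.34 and 1.74, with limma adjusted p values up to 0.127.

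Of the lower ones 5 are named. Npnt, which encodes nephronectin, an integrin ligand of basement membranes, had 142, 218 and 193 TPM after anti-PD-1 against 12.9, 41.2 and 36.7 TPM after DOX/IgG1 (log2 fold change -2.70, limma adjusted p = 0.109). Serpini1, for the protease inhibitor neuroserpin, had 73.2, 77.7 and 24.3 TPM against 0, 4.16 and 2.76 TPM, and Tmc5, for a membrane protein of the TMC family, had 59.4, 59.9 and 82.01 TPM against 4.4, 16.3 and 9.56 TPM. For each of the 3, DOX/IgG1 replicate 1 was the lowest of all tumors compared, and groups that lie apart were a condition of the choice. Tmsb15b2, of the actin-binding thymosins, was listed at 0 in all DOX/IgG1 tumors and at 12.5, 4.8 and 9.96 TPM after anti-PD-1, so that the filter alone sets its groups apart (limma adjusted p = 0.108 without the filter). Col9a1 is the fifth.

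Of 23 tested targets of p53, 9 lay higher in every DOX/IgG1 tumor and 0 lower (12.8% and 5.44% of all genes), limma called 0 with 8 higher at an unadjusted p below 0.05, and the median log2 fold change was 0.77 against 0.15. Cdkn1a, which encodes the cell cycle inhibitor p21, had 14.02, 10.7 and 29.3 TPM after anti-PD-1 against 54.8, 36.4 and 29.6 TPM after DOX/IgG1, where the lowest DOX/IgG1 value was close to the highest anti-PD-1 value. Phlda3, a repressor of Akt signaling, had 9.22, 8.86 and 8.37 TPM against 31.96, 27.2 and 17.9 TPM (log2 fold change 1.40, limma adjusted p = 0.191). Ccng1, for cyclin G1, had 83.8, 53.7 and 83.2 TPM against 167, 132 and 125 TPM. Zmat3, Btg2 and Plk2 also lay higher without overlap, with log2 fold changes of 1.25, 1.24 and 1.20. The medians of the 3 DOX/IgG1 tumors against the anti-PD-1 mean were 1.04, 0.54 and 0.60, highest in replicate 1. Without that tumor the median of the list was 0.38 and 2 genes were called higher (3.78% of all genes in that fit).

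Genes of the damage response itself did not move as a list. Of 18 tested genes for damage signaling and repair 2 lay higher and 2 lower in every DOX/IgG1 tumor (12.8% and 5.44% of all genes), and the median of 0.15 was the same to 2 decimals as that of all genes (0.00 to 0.12 with single tumors left out, a range that reaches 0). Mre11a, a nuclease at broken ends, had 24.5, 21.6 and 18.1 TPM against 40.6, 35.6 and 37.02 TPM, and H2afx, the histone that is phosphorylated at breaks, had 27.3, 38.7 and 27.9 TPM against 17.4, 9.07 and 13.7 TPM. For 12 tested genes of doxorubicin targets, pumps and reductases the median was 0.13, -0.02 with scaling, and -0.15 to 0.25 with single tumors left out. Of the 12, 1 lay higher and 1 lower in every DOX/IgG1 tumor (12.8% and 5.44% of all genes). Abcc1, an efflux pump, had 13.8, 17.6 and 22.6 TPM after anti-PD-1 against 46.9, 23.9 and 29.1 TPM after DOX/IgG1, without overlap and not called (limma adjusted p = 0.358). The pump gene Abcb1a differed among the DOX/IgG1 tumors, with 0, 17.7 and 11.1 TPM against 3.97, 2.75 and 2.7 TPM.

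Immediate early genes, which cells transcribe within minutes of a stimulus, had a median of 0.68 over 14 tested members, 5 of which lay higher in every DOX/IgG1 tumor and 0 lower (12.8% and 5.44% of all genes). The medians of the 3 DOX/IgG1 tumors were 0.43, 1.34 and 0.25 against the anti-PD-1 mean, and without replicate 2 the median of the list was 0.31. Limma called 0 of them, with 5 higher at an unadjusted p below 0.05. Fos had 56.3, 55.1 and 81.6 TPM after anti-PD-1 against 258, 342 and 148 TPM after DOX/IgG1 (log2 fold change 1.88, limma adjusted p = 0.137). Fosb had 1.35, 1.37 and 2.56 TPM against 27.2, 17.6 and 6.74 TPM, and Egr1 had 21.2, 22.2 and 23.4 TPM against 58.8, 87.7 and 33.1 TPM. These genes also respond to handling of tissue, and whether the time to freezing differed is not given.

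Of 15 tested genes for matrix proteases and inhibitors 7 lay higher in every DOX/IgG1 tumor and 0 lower (12.8% and 5.44% of all genes). Among the 7 only Timp3 was called (0.0361% of all genes were called higher). The median was 0.88 against 0.15. The collagenase activator Mmp14 had 126, 63.9 and 79.97 TPM after anti-PD-1 against 214, 158 and 235 TPM after DOX/IgG1, and the gelatinase gene Mmp2 had 62.8, 46.1 and 59.5 TPM against 67.6, 171 and 151 TPM. The other gelatinase gene, Mmp9, was listed at 8.42, 4.42 and 2.5 TPM after DOX/IgG1 and at 0 in each anti-PD-1 tumor, so that the filter alone sets its groups apart. The stromelysin gene Mmp3 had 21.8, 27.6 and 32.99 TPM against 40.3, 105 and 68.1 TPM and the macrophage elastase gene Mmp12 10.9, 11.3 and 5.37 TPM against 27.9, 18.8 and 27.6 TPM. The groups of Mmp14, Mmp2, Mmp3 and Mmp12 did not overlap, and none of these passed the limits with all tumors. The 3 DOX/IgG1 tumors had medians of 0.82, 0.86 and 1.05 against the anti-PD-1 mean, and leaving out each tumor moved the median of the list between 0.80 and 0.96.

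Of 12 tested genes of the hedgehog pathway 7 lay higher in every DOX/IgG1 tumor and 0 lower (12.8% and 5.44% of all genes), limma called 0 with 7 higher at an unadjusted p below 0.05, and the median was 0.89 against 0.15. Among ligands, Dhh had 1.37, 1.05 and 1.66 TPM after anti-PD-1 against 4.75, 2.81 and 5.1 TPM after DOX/IgG1, and Shh and Ihh were too low to be tested. The receptor and target gene Ptch1 had 9.06, 14.4 and 12.5 TPM against 37.3, 16.7 and 19.9 TPM, and the coreceptor genes Boc and Gas1 had log2 fold changes of 0.87 and 1.34. Hhipl2, related by sequence to a hedgehog-binding protein, had 7.01, 4.86 and 1.77 TPM against 80.8, 12.9 and 22.4 TPM (limma adjusted p = 0.240). Replicate 1 was the highest DOX/IgG1 tumor for Ptch1, Boc and Hhipl2, and without it the median of the list was 0.65. The study reported a pattern of increased hedgehog signaling in DOX/IgG1 against IgG1 tumors. The direction of this list is therefore not independent of that report.

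**Figure D4:**
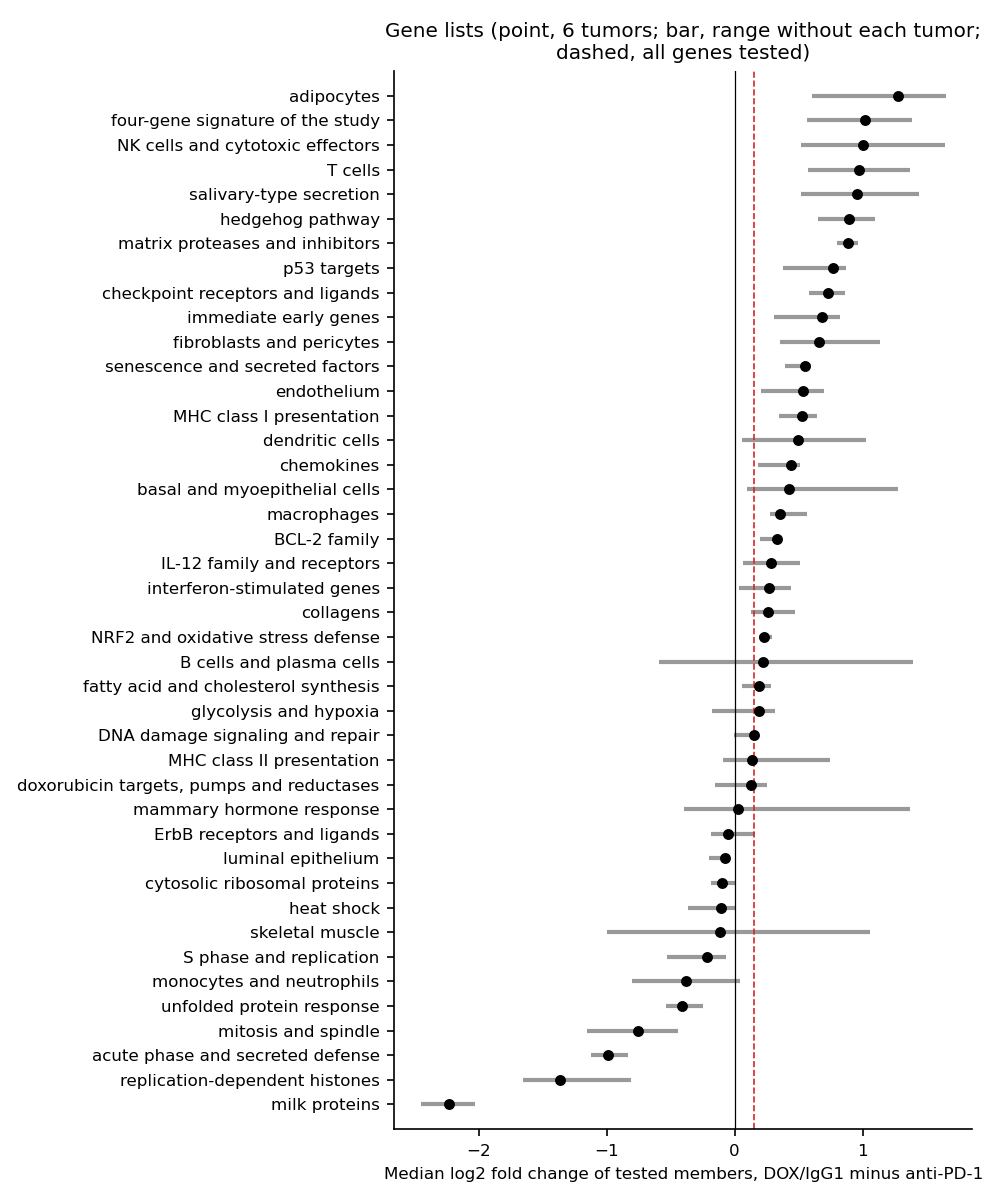
Median log2 fold change of the tested members of each gene list, with bars for the range when each tumor is left out in turn and a dashed line at 0.15, the median of all tested genes. Milk proteins lie lowest at -2.23, and adipocyte genes lie highest at 1.27.

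Stromal genes differed mainly among the DOX/IgG1 tumors. The 10 genes of fibroblasts and pericytes were detected in every tumor and summed to 332, 308 and 321 TPM after anti-PD-1 and to 267, 1162 and 752 TPM after DOX/IgG1. Replicate 1 thus lay below all anti-PD-1 tumors and replicates 2 and 3 above all of them. Dcn, which encodes decorin and was the most abundant member, had 90.9, 98.2 and 93.7 TPM against 76.8, 619 and 323 TPM (log2 fold change 1.39, limma adjusted p = 0.423). Limma called 0 of the 10 with 2 higher at an unadjusted p below 0.05 (median 0.66, or 0.35 to 1.14 with single tumors left out). Without replicate 1 it called 4 higher (median 1.14), against 3.78% of all genes in that fit. Basal and myoepithelial genes followed the same order, with medians of -0.81, 1.27 and 1.20 against the anti-PD-1 mean, and Acta2, for smooth muscle actin, had 78.1, 141 and 166 TPM against 63.7, 346 and 507 TPM. The part of fibroblasts in the differences of matrix genes such as Timp3 and Prelp was not tested. Without replicate 1 the log2 fold changes of Timp3 and Prelp were 1.98 and 2.23, against 1.92 and 2.13 with it. Limma called 0 of 10 adipocyte genes with 4 higher at an unadjusted p below 0.05. In every DOX/IgG1 tumor 2 of the 10 lay higher and 0 lower (12.8% and 5.44% of all genes). The median was 1.27 (0.61 to 1.65 with single tumors left out). The 10 genes summed to 169, 117 and 187 TPM after anti-PD-1 and to 216, 1037 and 172 TPM after DOX/IgG1. Hence 1 tumor held most of the fat RNA. Endothelial genes had a median of 0.54 (0.21 to 0.70 with single tumors left out). Of the 9 tested, Kdr and Flt1 lay higher and Cdh5 lower in every DOX/IgG1 tumor (12.8% and 5.44% of all genes).

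Genes of the mammary hormone response also divided the DOX/IgG1 group. Pgr, which encodes the progesterone receptor, measured 16.1, 6.44 and 11.02 TPM in anti-PD-1 tumors against 9.2, 103 and 176 TPM in DOX/IgG1 tumors. The estrogen receptor gene Esr1 had 14.9, 10.9 and 13.1 TPM against 5.37, 51.3 and 77.5 TPM, and its partner Foxa1 had 10.6, 7.36 and 12.7 TPM against 6.29, 48.3 and 76.2 TPM. Replicates 2 and 3 lay above every anti-PD-1 tumor in all 3 genes, and replicate 1 lay below every one for Esr1 and Foxa1 and among them for Pgr. The prolactin receptor gene Prlr followed with 167, 193 and 148 TPM against 92.2, 416 and 459 TPM, and the luminal keratin gene Krt19 had 406, 255 and 265 TPM against 302, 1261 and 1801 TPM. Over the 11 tested genes the median log2 fold change was 0.02 (-0.10 with scaling), none had groups apart, and limma called 0 with 1 at an unadjusted p below 0.05. Without replicate 1 the median was 1.37 and limma called Pgr, Esr1, Foxa1 and Prlr higher (3.78% of all genes in that fit). Leaving out any of 4 tumors turned the sign of the median, which ranged from -0.39 to 1.37, so the list has no stable direction.

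**Figure D5:**
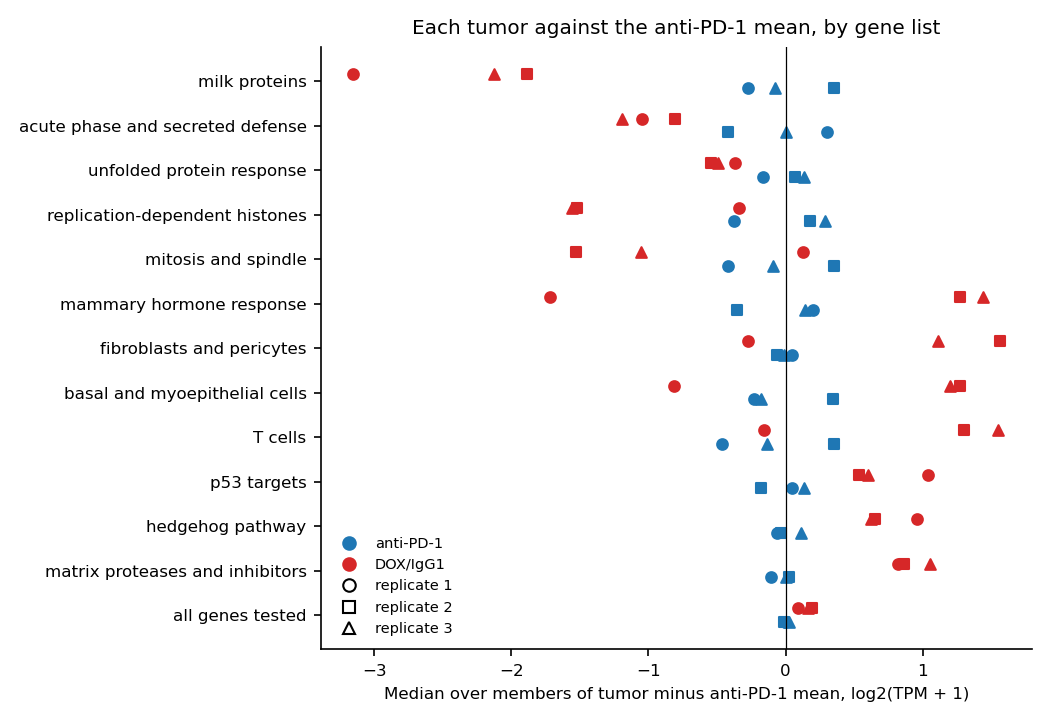
Median over list members of the difference between each tumor and the mean of the anti-PD-1 tumors, in log2(TPM + 1). DOX/IgG1 replicate 1 (red circle) lies with the other DOX/IgG1 tumors for p53, hedgehog and acute phase genes and for matrix proteases and inhibitors. For hormone response genes it lies on the other side of the anti-PD-1 tumors (-1.72 against 1.27 and 1.44).

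T cell genes were low in all tumors. Of 12 genes 7 could be tested, 1 lay higher in every DOX/IgG1 tumor (12.8% of all genes), limma called 0 with 2 higher at an unadjusted p below 0.05, and the median was 0.97. The list summed to 16.3, 22.7 and 10.9 TPM after anti-PD-1 and to 19.2, 65.9 and 54.8 TPM after DOX/IgG1. Replicates 2 and 3 thus stood above all anti-PD-1 tumors and replicate 1 among them. Cd3e, the most abundant member, had 0, 7.84 and 1.58 TPM against 0.88, 24.6 and 15.7 TPM, and Lck, the kinase next to the T cell receptor, had 3.43, 3.79 and 1.1 TPM against 9.25, 8.6 and 5.51 TPM. Cd3d, a defining marker, was at 0 in all anti-PD-1 tumors and in 2 of the 3 DOX/IgG1 tumors. NK cell and cytotoxic genes summed to 12.0, 20.2 and 29.7 TPM against 11.4, 63.0 and 61.9 TPM, and only 5 of 12 were tested (median 1.01, limma called 0 with 0 at an unadjusted p below 0.05). Leaving out each tumor in turn moved the medians between 0.57 and 1.37 for T cells and between 0.52 and 1.65 for NK cells.

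Among 12 checkpoint receptors and ligands 7 could be tested, of which 3 lay higher in every DOX/IgG1 tumor and 0 lower, against 12.8% and 5.44% of all genes (median 0.73 against 0.15). Pdcd1, which encodes PD-1 itself, was too low to be tested, with 0, 0.65 and 0 TPM after anti-PD-1 against 0, 2.17 and 2.09 TPM after DOX/IgG1. Cd274, for its ligand PD-L1, had 3.98, 1.87 and 2.75 TPM against 4.91, 7.71 and 4.38 TPM, without overlap (log2 fold change 0.79, limma adjusted p = 0.482). Vsir, for the checkpoint protein VISTA, had 22.8, 17.9 and 21 TPM against 37.5, 33.7 and 32.8 TPM. Limma called 0 of the 7, with 3 higher at an unadjusted p below 0.05.

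Of 12 macrophage genes 5 lay higher in every DOX/IgG1 tumor and 0 lower (12.8% and 5.44% of all genes), with a median of 0.35 against 0.15, and 0.56 without DOX/IgG1 replicate 1. The mannose receptor gene Mrc1 had 24.6, 32.2 and 32.9 TPM after anti-PD-1 against 41.6, 59.05 and 56.6 TPM after DOX/IgG1, and limma called 0 of the 12 with 4 at an unadjusted p below 0.05. Apoe was the most abundant member, and the list summed to 1178, 1136 and 799 TPM against 885, 1632 and 1349 TPM, which overlapped. Class I antigen presentation had a median of 0.53 (0.34 to 0.64 with single tumors left out), and Tap1 and Tap2 were the only 2 of its 12 genes higher in every DOX/IgG1 tumor, near the 12.8% of all genes, and class II presentation had 0.14 with no gene apart (-0.09 to 0.74 with single tumors left out, the highest without DOX/IgG1 replicate 1). Of 9 B cell markers only Jchain could be tested, and the others were too low. Jchain had 3.57, 1.37 and 6.58 TPM after anti-PD-1 against 0, 7.32 and 14.7 TPM after DOX/IgG1. Its log2 fold change was 0.22 (-0.59 to 1.40 with single tumors left out).

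The remaining lists had medians between -0.38 and 0.55. They were 0.55 for senescence and secreted factors, 0.50 for dendritic cells, 0.44 for chemokines, 0.33 for the BCL-2 family and 0.29 for the IL-12 family. Of the senescence genes 4 of 12 and of the IL-12 family 3 of 10 lay higher without overlap, and 0 lower (12.8% and 5.44% of all genes). Interferon-stimulated genes had 0.27. Oxidative stress defense had 0.23 with 4 of 11 genes higher without overlap (12.8% of all genes), among them Gclc, for glutathione synthesis (14.1, 19.7 and 14.9 TPM against 41.6, 37.1 and 28.3 TPM). Medians were 0.19 for lipid synthesis, 0.19 for glycolysis and hypoxia, -0.05 for ErbB receptors and ligands, -0.10 for heat shock proteins and -0.38 for monocytes and neutrophils. Cytosolic ribosomal proteins had -0.10, with 9 of 78 genes lower and 2 higher without overlap (5.44% and 12.8% of all genes). Leaving out single tumors took medians across 0 for ribosomal proteins (-0.19 to 0.01), glycolysis and hypoxia (-0.18 to 0.32), monocytes and neutrophils (-0.80 to 0.04), heat shock proteins (-0.37 to 0.01) and ErbB genes (-0.18 to 0.16). The lowest medians reached in this way were 0.06 for dendritic cells, 0.18 for chemokines, 0.20 for the BCL-2 family, 0.06 for the IL-12 family, 0.04 for interferon-stimulated genes and 0.06 for lipid synthesis. Limma called 0 genes in each of these 13 lists, with at most 3 higher and 6 lower in any of them at an unadjusted p below 0.05. The signature of the study, Dio2, Gsn, Mmp3 and Pdk4, had a median of 1.02 (0.57 to 1.38) and 0 called genes (2 higher at an unadjusted p below 0.05 by limma). The study took it by patient survival from genes higher in DOX/anti-PD-1 than in the same anti-PD-1 tumors, so its direction here is not independent of that choice. Among its members, Gsn, for the actin-severing protein gelsolin, had 64.5, 52.5 and 58.3 TPM against 77.3, 893 and 275 TPM.

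IgG1 and DOX/anti-PD-1 tumors show where the 2 groups lie relative to the other treatments. Both differences from IgG1 share the same control tumors, so they are given side by side without a test. Igfbp4 had 283, 153 and 186 TPM in IgG1 tumors, and the mean log2 values of anti-PD-1 and DOX/IgG1 tumors differed from IgG1 by -1.05 and 0.82. For Gas6 these differences were -0.92 and 0.92, so that for both genes the 2 groups lay about equally far from IgG1 on opposite sides. For Timp3 they were -0.53 and 1.39, for Saa1 0.37 and -2.88, for Col9a2 0.28 and -1.81 and for Xbp1 0.07 and -1.45. In these 4 genes the anti-PD-1 tumors were the closer ones to IgG1. DOX/anti-PD-1 tumors differed from IgG1 by 0.05 for Timp3, -0.92 for Saa1 and -0.52 for Xbp1. The IgG1 mean lay between the means of the 2 groups in 11 of the 12 called genes and in 23 of the 24 named genes, and the DOX/anti-PD-1 mean did so in as many of each. The genes were chosen for a difference between the 2 groups, which by itself favors other groups falling between them.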

How the data were processed

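The authors deposited log2(TPM + 1) for each tumor, written with decimal commas, from reads aligned to mm10 with STAR and quantified with RSEM, whose versions are not given in the sources used here. Values were used on that scale, and TPM shown in the text were converted back. Of 21960 genes, 21860 were matched by Ensembl ID to GENCODE vM21 coordinates.

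Group means of the 6 tumors were compared with limma 3.58.1 (R 4.3.3) with trend and Benjamini-Hochberg adjustment over the 13852 tested genes. Exact permutation p values come from all splits of 3 against 3. Named genes are all called genes and, beyond them, those with the smallest p among genes with an absolute log2 fold change above 1 groups that do not overlap and at least 1 TPM in the whole higher group, up to 12 in each direction. Gene models without a gene symbol were passed over.

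The 42 gene lists were written from general knowledge, and their members and the lists were chosen with earlier results of these data known. Histones were taken by symbol prefix, collagens as Col genes with chain numbers, and ribosomal proteins as Rpl, Rps and Rplp genes without the ribosomal kinases. Lists are described by counts and medians without a test. Alternatives changed the pseudocount, filter, tumors in the fit, block, scaling, moderation and limits, and each tumor was left out. The scripts were tried on simulated data before use. Promoters are the 250 bases before RefSeq starts, matched by symbol for all 15 genes, and the letters printed lie outside annotated exons. A result withheld for evaluation is not reported here.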

Additional observations from a re-analysis of the deposited data

How the results depend on the processing

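Counts of called genes depended on the setting. With all 12 tumors in the fit limma called 68 genes, 42 higher and 26 lower, against 12, 5 and 7. Without the trend it called 23, 14 higher and 9 lower, with log2(TPM + 5) 18, 7 higher and 11 lower, and with median of ratios scaling 20, 5 higher and 15 lower. Scaling also moved the median of all genes from 0.15 to 0.01, and the medians of mammary hormone response and of doxorubicin targets changed sign with it. Leaving out each tumor in turn gave 0 to 673 called genes, 0 to 523 higher and 0 to 150 lower. Without anti-PD-1 replicates 1, 2 and 3 limma called 2, 2 and 0 genes, of which 0, 1 and 0 were higher and 2, 1 and 0 lower (1249 at an unadjusted p below 0.05 without replicate 3). Without DOX/IgG1 replicates 1, 2 and 3 it called 673, 6 and 10, of which 523, 0 and 4 were higher and 150, 6 and 6 lower. Without replicate 1 of both groups, a setting chosen after seeing the data, it called 787, 614 higher and 173 lower. With other pseudocounts, filters and limits it called 9 to 13. Of the 12 genes, 10 were called without the trend and 9 at an adjusted p below 0.05.

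With the replicate number as a replicate block limma called 1 gene, 0 higher and 1 lower (1660 at an unadjusted p below 0.05), and the gene was Hist1h2af. The numbers do not pair the tumors, since correlations of tumors with the same number, after removing group means, were -0.047 to 0.023 against -0.056 to 0.077 between different numbers, and not every tumor correlated best with its own number. The block therefore takes up degrees of freedom without removing shared variation.

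Over 14 alternatives the adjusted p ranged from 0.00530 to 0.173 for Igfbp4, from 0.0168 to 0.424 for Xbp1 and from 0.00262 to 0.117 for Hist1h2af. Over these 14 alternatives the 24 named genes kept their status as called or not called in 227 values, became called in 48 and were no longer called in 60, and none changed sign. Leaving out single tumors changed the sign of the median in 11 of the 42 gene lists, and moved it from 0.43 to 1.28 for basal cells, from 0.66 to 1.14 for fibroblasts and from 0.77 to 0.38 for p53 targets, each without DOX/IgG1 replicate 1. Sequencing depth is unknown, so values near 0 carry an error that could not be modeled, and 3 tumors per group limit every test.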
